A study of Homo sapiens with 6 samples.

Results

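The miR-106b, miR-93 and miR-25 hairpins lie together in an intron of MCM7, and the 6 mature miRNAs made from their 5p and 3p arms are described here. The members were chosen by name, as the rows of the deposited table for both arms of the 3 hairpins. All 6 were present among the 1596 miRNAs of the table, and all 6 passed the filter on low counts. Small RNA was sequenced from human melanoma cells treated for 24 hours with RSL3 combined with IFN-γ (RSL3+IFN-γ, 3 libraries) or with RSL3 alone (RSL3, 3 libraries). RSL3, which both groups received, inactivates the lipid peroxide-reducing enzyme GPX4 and so drives ferroptosis, while IFN-γ is the cytokine by which activated T cells act on tumor cells. No library of untreated cells or of IFN-γ alone was analysed here, so the comparison shows what IFN-γ added to RSL3. The labels name the cells as A2058 and the text of the study names A375. Both are established human melanoma lines, and each group is labelled as a single line in culture. Whether same-numbered libraries of different groups belong together is not stated in the sources used here, so pairing by number below is an assumption. Whether the 3 replicates were separate cultures is not stated there either. The p-values below therefore reflect the variation among these libraries, and part or all of it may be technical.

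A miRNA hairpin is cut out of its host transcript, trimmed to a duplex, and either strand of the duplex may be loaded into an Argonaute protein. The loaded strand then finds target messages mainly through its seed, bases 2 to 8 from its 5′ end. MCM7 encodes a subunit of the helicase that opens DNA at replication origins and is transcribed in dividing cells under control of E2F factors. Its intronic hairpins are paralogs of the oncogenic miR-17-92 cluster. MiR-106b-5p and miR-93-5p repress the cell cycle inhibitor CDKN1A, miR-25-3p represses the pro-apoptotic protein BCL2L11, and in alpaca melanocytes miR-25 was shown to target MITF, the master factor of the pigment cell lineage.

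In GENCODE 29 on GRCh38, MCM7 occupies chromosome 7 from 100092728 to 100101940 on the minus strand. In its 15-exon transcript MCM7-201 all 3 hairpins lie in intron 13, from 100093402 to 100094172. In the direction of transcription MIR106B comes first (100093993 to 100094074), followed by MIR93 (100093768 to 100093847) and MIR25 (100093560 to 100093643). The hairpins are separated by 145 and 124 bases, so that a stretch of 515 bases holds the whole cluster. None of the 3 overlaps an exon of that transcript.

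The mature sequences of the members, from RefSeq (GRCh38.p14), are shown 5′ to 3′ with the seed in capitals, because the seed divides them into those with and without relatives elsewhere in the genome.
hsa-miR-106b-5p: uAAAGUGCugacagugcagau
hsa-miR-93-5p: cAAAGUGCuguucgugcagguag
hsa-miR-25-3p: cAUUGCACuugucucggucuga
hsa-miR-106b-3p: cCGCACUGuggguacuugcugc
hsa-miR-93-3p: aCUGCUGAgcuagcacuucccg
hsa-miR-25-5p: aGGCGGAGacuugggcaauug

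MiR-106b-5p and miR-93-5p carried the same seed, which 6 other entries of the table shared. The seed of miR-25-3p was shared by 4 other entries. The seeds of miR-106b-3p, miR-93-3p and miR-25-5p occurred in no other entry whose sequence was found. The relatives that matter below, from chromosomes 13 and 9, are shown in the same way.
hsa-miR-17-5p: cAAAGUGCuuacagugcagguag
hsa-miR-20a-5p: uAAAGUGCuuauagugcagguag
hsa-miR-92a-3p: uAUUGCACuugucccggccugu
hsa-miR-32-5p: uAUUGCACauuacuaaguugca

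Because near-identical miRNAs can share reads, the distance of each member to its nearest entry was counted as the number of single-base changes, insertions or deletions. MiR-93-5p differed by 3 from miR-17-5p and from miR-20b-5p, miR-25-3p by 4 from miR-92a-3p, and miR-106b-5p by 5 from its nearest relatives. The other 3 members were at least 7 apart from every other entry whose sequence was found. The sources used here leave unsaid how a read that matches more than 1 miRNA was assigned, so of the 6 members miR-93-5p is the most exposed to this uncertainty.

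Libraries held 4383940 to 5367150 counts in the RSL3+IFN-γ group and 4897890 to 6513382 in the RSL3 group. The 6 members had between 285 and 51285 reads each in every library. MiR-21-5p alone took 22.1% to 34.3% of the counts with RSL3+IFN-γ and 33.8% to 36.2% with RSL3, and scaling by TMM gave factors of 0.944 to 1.33 and 0.861 to 0.913 in the same order of groups. Levels are therefore given as TMM-scaled CPM (counts scaled to a common library size). Melanocyte and melanoma miRNAs (6 of 6 in the table) summed to 94591 to 148274 CPM with RSL3+IFN-γ and 86432 to 116352 CPM with RSL3, nearly all of it miR-146a-5p. MiR-211-5p, made from the melanocyte gene TRPM1, was at 286 to 387 CPM and 270 to 318 CPM, and miR-508-3p was at 0 in all 3 RSL3+IFN-γ libraries and at most 1.58 CPM in RSL3 libraries. MiR-204-5p was at 161 to 174 CPM with RSL3+IFN-γ and 238 to 344 CPM with RSL3, and miR-514a-3p at 14.5 to 30.3 CPM and 50.1 to 75.9 CPM, so these 2 were lower in every RSL3+IFN-γ library while the printed sum was not. MiR-509-3p was at most 0.683 CPM with RSL3+IFN-γ and 2.97 CPM with RSL3. Markers of blood cells (6 of 6) summed to 86.0 to 332 CPM and 102 to 169 CPM, those of epithelium (6 of 6) to 116 to 158 CPM and 162 to 201 CPM, and those of liver and muscle (4 of 4) to 283 to 452 CPM and 251 to 1362 CPM, each time with RSL3+IFN-γ first. The last maximum belonged to RSL3 replicate 3, which stood apart by miR-1-3p and miR-184. Their part in the results was not tested. No library was a copy of another within counting noise, the smallest chi-square between any pair being 125 for each degree of freedom.

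None of the 6 members passed the test between RSL3+IFN-γ and RSL3. MiR-93-5p and miR-106b-5p, the carriers of the miR-17 seed, were lower in every RSL3+IFN-γ library than in every RSL3 library in TMM-scaled CPM, while the levels of the other 4 members overlapped between the groups. This separation depended on the scaling, since on library totals alone both overlapped. MiR-25-3p, the most abundant of them, had a log2 fold change of −0.03. The test was edgeR's quasi-likelihood test on the counts, two-sided, with Benjamini-Hochberg adjustment over 758 miRNAs, of which 4.75% were called at an adjusted p under 0.05 (2.51% rose and 2.24% fell). By edgeR 0 members rose and 0 fell. Before adjustment 1 of 6 had p under 0.05, beside 25.9% of all tested miRNAs, while DESeq2 and limma called 0 members, beside 12.5% and 5.28% of all. Groups did not overlap in 2 of 6 members, beside 29.8% of all tested miRNAs. With the replicate number as a block, which raised the share called among all miRNAs to 10.8%, edgeR called 0 members. Before adjustment 1 member had p under 0.05 with the block, beside 216 of all 758 miRNAs.

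**Figure D1:**
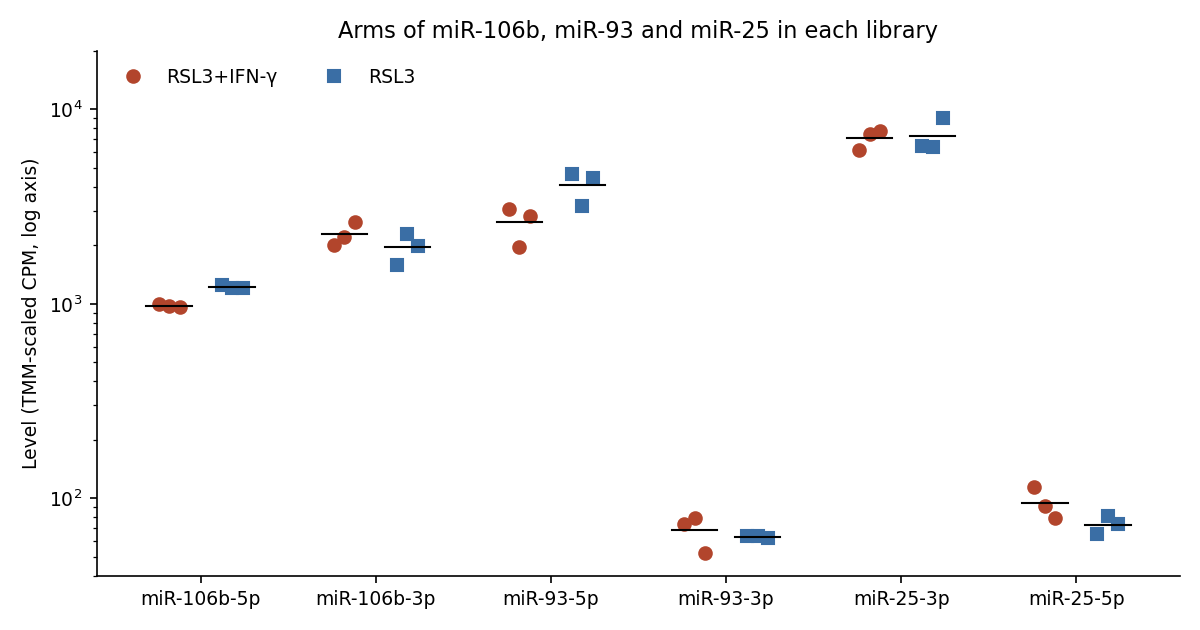
Levels of the 6 members in each library, in TMM-scaled CPM on a log axis. Circles are RSL3+IFN-γ libraries, squares are RSL3 libraries and bars are group means (n = 3 each). MiR-93-5p and miR-106b-5p are the 2 members whose groups do not overlap on this scale, and they overlap on library totals alone.

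MiR-93-5p had 3089, 1964 and 2817 CPM in the RSL3+IFN-γ libraries, against 4627, 3174 and 4451 CPM in the RSL3 libraries. The highest RSL3+IFN-γ library, replicate 1, lay just under the lowest RSL3 library, replicate 2. The group means were 2623 ± 587 CPM and 4084 ± 793 CPM (SD, n = 3 each). On the log2 scale this was −0.64 with a standard error of 0.256 (edgeR adjusted p = 0.150), or a fold of 0.642 with a 95% interval of 0.434 to 0.951 that is not adjusted for the number of miRNAs. On library totals alone the level was 2917, 2611 and 3252 CPM with RSL3+IFN-γ, against 3984, 2899 and 3905 CPM with RSL3, so that RSL3 replicate 2 lay within the RSL3+IFN-γ range, while each RSL3+IFN-γ library was below the RSL3 library of its number (log2 differences −0.45, −0.15 and −0.26). With the replicate block the log2 fold change was −0.65 (edgeR adjusted p = 0.0687). Over 15 settings, the first one included, the value stayed between −0.81 and −0.30 and the adjusted p between 0.0687 and 0.440.

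MiR-106b-5p had 1002, 979 and 957 CPM in the RSL3+IFN-γ libraries, against 1244, 1212 and 1210 CPM in the RSL3 libraries. Replicates of a group lay close to each other, with a coefficient of variation of 2.25% in the RSL3+IFN-γ group and 1.55% in the RSL3 group. The means were 979 ± 22.1 CPM and 1222 ± 19.0 CPM (SD, n = 3 each). On library totals alone they were 1117 ± 178 CPM and 1080 ± 23.7 CPM (SD, n = 3 each), with overlap. Levels in each library were not examined under other scalings. The log2 fold change was −0.32 (standard error 0.203, edgeR adjusted p = 0.343), where the standard error rests on a spread that edgeR shares among miRNAs and not on these 6 values alone. An exact permutation test of 3 libraries against 3 cannot go below p = 0.1 and was not used.

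MiR-106b-3p, the opposite strand of that duplex, had 2014, 2218 and 2627 CPM in the RSL3+IFN-γ libraries, against 1584, 2281 and 1983 CPM in the RSL3 libraries. RSL3 replicate 2 lay above 2 of the 3 RSL3+IFN-γ libraries. The means were 2286 ± 312 CPM and 1949 ± 349 CPM (SD, n = 3 each), with a log2 fold change of 0.23 (95% interval −0.28 to 0.74, edgeR adjusted p = 0.573).

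MiR-25-3p had 6193, 7485 and 7748 CPM in the RSL3+IFN-γ libraries, against 6482, 6403 and 8973 CPM in the RSL3 libraries. RSL3 replicate 3 was the highest of all and the groups overlapped throughout. The means were 7142 ± 832 CPM and 7286 ± 1462 CPM (SD, n = 3 each). The 95% interval of its log2 fold change of −0.03 ran from −0.54 to 0.48 (edgeR adjusted p = 0.938), and without RSL3 replicate 3 the value was 0.12.

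The remaining arms were scarce. MiR-25-5p had 114, 91.4 and 78.9 CPM in the RSL3+IFN-γ libraries, against 65.3, 80.9 and 73.7 CPM in the RSL3 libraries, a log2 fold change of 0.37 (95% interval −0.15 to 0.89, edgeR adjusted p = 0.343). Of the RSL3+IFN-γ libraries replicate 3 alone lay within the range of the RSL3 libraries. MiR-93-3p, the passenger strand of the miR-93 duplex, had 73.7, 79.2 and 52.1 CPM in the RSL3+IFN-γ libraries, against 63.9, 63.7 and 62.8 CPM in the RSL3 libraries. Its RSL3+IFN-γ libraries lay on either side of the RSL3 range, with a log2 fold change of 0.11 (95% interval −0.43 to 0.64, edgeR adjusted p = 0.807). On library totals alone the groups of these 2 scarce arms did not overlap, both being higher with RSL3+IFN-γ. The tested miRNAs as a whole were also shifted upward there, with a median of 0.33 on the log2 scale. How many of them lay apart between the groups on library totals was not counted.

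**Figure D2:**
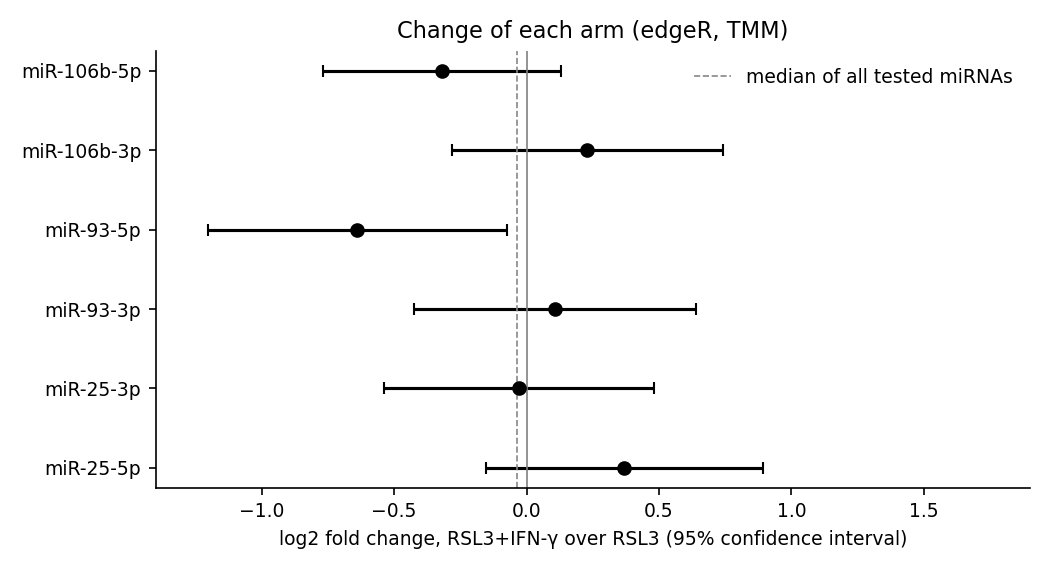
Log2 fold change of each member, RSL3+IFN-γ over RSL3, with its 95% confidence interval from edgeR's quasi-likelihood fit (TMM scaling). The dashed line is the median of all 758 tested miRNAs at −0.04. The interval of miR-93-5p, whose upper end is −0.07, lies below 0 and the others cross it.

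The directions depended on what the values were scaled to. Over all 758 miRNAs the log2 fold change had a median of −0.04 under TMM, whereas library totals alone gave 0.33 and upper-quartile factors −0.13. Taken relative to that median, under these scalings and DESeq2's size factors, miR-93-5p lay at −0.63 to −0.59, miR-106b-5p at −0.29 to −0.28, miR-106b-3p at 0.25 to 0.27, miR-93-3p at 0.14 to 0.15, miR-25-5p at 0.38 to 0.41 and miR-25-3p at 0.01 to 0.02. Against library totals only, miR-106b-5p itself had a log2 fold change of 0.05, miR-106b-3p 0.60 (edgeR adjusted p = 0.158), miR-25-5p 0.72 (edgeR adjusted p = 0.102) and miR-93-5p −0.30 (edgeR adjusted p = 0.440). There 2 of the 6 members had p under 0.05 before adjustment (edgeR), beside 238 of all 758 miRNAs. They were miR-106b-3p and miR-25-5p, and miR-93-5p was not among them.

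The base composition of the arms moved with their direction. Across the 679 tested miRNAs with a known sequence, the log2 fold change tended to increase with GC content (Spearman correlation 0.469, across miRNAs, which are not independent replicates). In each of the 3 hairpins the arm of higher GC content had the positive value, namely miR-106b-3p (63.6% GC), miR-93-3p (59.1%) and miR-25-5p (57.1%), and the arm of lower GC content had the negative value, namely miR-106b-5p (42.9%), miR-93-5p (52.2%) and miR-25-3p (50%). With the trend on GC content removed from each library, the log2 fold changes were −0.13 for miR-106b-3p, −0.18 for miR-93-3p, 0.15 for miR-25-5p, −0.12 for miR-106b-5p and −0.06 for miR-25-3p. MiR-93-5p stood at −0.74 after this correction (edgeR adjusted p = 0.122), or −0.75 with the replicate block as well (edgeR adjusted p = 0.0757). Whether base composition had a part in these values was not tested beyond this correction.

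The 3 hairpins are cut from the same intron, yet their mature products differed widely in level. Summed over both arms, miR-25 gave 54.8% ± 4.30 (SD, n = 3) of the reads of the cluster with RSL3+IFN-γ and 49.9% ± 3.79 (SD, n = 3) with RSL3. MiR-106b gave 24.7% ± 0.506 with RSL3+IFN-γ and 21.9% ± 3.99 with RSL3, and miR-93 gave 20.5% ± 4.70 with RSL3+IFN-γ and 28.3% ± 4.57 with RSL3 (SD, n = 3 each). All 3 shares overlapped between the groups. Within same-numbered libraries the share of miR-93 differed by −8.02, −8.56 and −6.85 percentage points. In CPM, miR-93 as a whole averaged 2692 ± 580 with RSL3+IFN-γ and 4147 ± 793 with RSL3, with no overlap in TMM-scaled CPM but with overlap on library totals alone, whereas miR-106b as a whole averaged 3265 ± 290 and 3171 ± 333, and miR-25 averaged 7237 ± 815 and 7360 ± 1462, with overlap (SD, n = 3 each, RSL3+IFN-γ first). The levels of different miRNAs also reflect how well each sequence is captured in a small RNA library, which was not measured here.

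Read counts within a library compare the members without any scaling. Log2 of miR-93-5p reads over miR-106b-5p reads was 1.62, 1.00 and 1.56 in the RSL3+IFN-γ libraries, against 1.89, 1.39 and 1.88 in the RSL3 libraries. The groups overlapped, with a difference between the means of −0.33, while within same-numbered libraries the differences were −0.27, −0.38 and −0.32. Log2 of miR-25-3p over miR-93-5p was 1.00, 1.93 and 1.46 with RSL3+IFN-γ, against 0.49, 1.01 and 1.01 with RSL3. Replicate 1 of RSL3+IFN-γ lay just under the upper 2 RSL3 libraries, and the difference of means was 0.63 (0.52, 0.92 and 0.45 within same-numbered libraries). For miR-25-3p over miR-106b-5p the difference of means was 0.30, and for miR-106b-3p over miR-93-5p it was 0.88, both with overlap and both positive in 3 of 3 same-numbered pairs. These differences were not tested.

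As a whole the members held 1.18%, 1.70% and 1.65% of the counts of the RSL3+IFN-γ libraries, with exact (Clopper-Pearson) 95% intervals of 1.17% to 1.19%, 1.69% to 1.72% and 1.64% to 1.66%. In the RSL3 libraries they held 1.21%, 1.21% and 1.47%, with intervals of 1.20% to 1.22%, 1.20% to 1.22% and 1.46% to 1.48%. These intervals cover counting error only. The means were 1.51% ± 0.288 and 1.30% ± 0.151 (SD, n = 3 each), RSL3+IFN-γ replicate 1 being the lowest library of all. In TMM-scaled CPM the order of the means was turned round, at 13194 ± 955 with RSL3+IFN-γ and 14678 ± 1847 with RSL3 (SD, n = 3 each), so that the summed level of the cluster did not differ beyond the spread of the libraries on either scale.

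Strand choice differed between the hairpins. The hairpin of miR-106b is shown from RefSeq, 5′ to 3′, with the 5p arm and then the 3p arm in capitals, since here both strands were abundant.
MIR106B: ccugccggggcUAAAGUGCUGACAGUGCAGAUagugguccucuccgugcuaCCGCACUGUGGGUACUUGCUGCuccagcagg

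The 3p arm made up 69.8% ± 3.27 of the miR-106b reads with RSL3+IFN-γ and 61.1% ± 4.72 with RSL3 (SD, n = 3 each), so the strand without the miR-17 seed was the more abundant. For miR-93 the 3p arm took 2.67% ± 1.07 and 1.57% ± 0.341 of the reads, and for miR-25 it took 98.7% ± 0.417 and 99.0% ± 0.218 (SD, n = 3 each, RSL3+IFN-γ first). The ratio of the arms is free of library scaling, since both strands of a duplex are counted in the same library.

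For miR-106b, log2 of 3p over 5p reads was 1.01, 1.18 and 1.46 in the RSL3+IFN-γ libraries, against 0.35, 0.91 and 0.71 in the RSL3 libraries. Every RSL3+IFN-γ library lay above every RSL3 library, and the groups lay apart, in either direction, in 22.7% of the 181 hairpins tested. The difference was 0.56 (standard error 0.346, 95% interval −0.23 to 1.35, limma adjusted p = 0.406). For miR-93 the ratio was −5.39, −4.63 and −5.75 in the RSL3+IFN-γ libraries, against −6.18, −5.64 and −6.14 in the RSL3 libraries. The groups overlapped by RSL3 replicate 2, and the difference was 0.73 (95% interval −0.20 to 1.66, limma adjusted p = 0.365). For miR-25 it was 5.76, 6.35 and 6.62 in the RSL3+IFN-γ libraries, against 6.63, 6.30 and 6.93 in the RSL3 libraries. The difference was −0.38 (95% interval −1.24 to 0.49, limma adjusted p = 0.610), with overlap. Leaving out each library in turn gave differences of 0.40 to 0.68 for miR-106b, 0.41 to 0.98 for miR-93 (lowest without RSL3+IFN-γ replicate 2) and −0.56 to −0.14 for miR-25 (nearest to 0 without RSL3+IFN-γ replicate 1 and, at −0.22, without RSL3 replicate 3).

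By limma 0 of the 181 hairpins (0%) were called in their arm ratio, and 19.3% had p under 0.05 before adjustment, with none of the 3 hairpins of the cluster among them. Over all tested hairpins the median difference was 0.13 toward the 3p arm. In each of the 3 hairpins the difference went toward the arm of higher GC content. Across the 156 tested hairpins with known sequences, the change and the GC difference of the arms had a Spearman correlation of 0.211. Hairpins are not independent replicates. With the trend on the difference in GC content between the arms removed, the value was 0.06 for miR-106b, 0.67 for miR-93 and −0.29 for miR-25 (limma adjusted p = 0.938, 0.395 and 0.653).

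**Figure D3:**
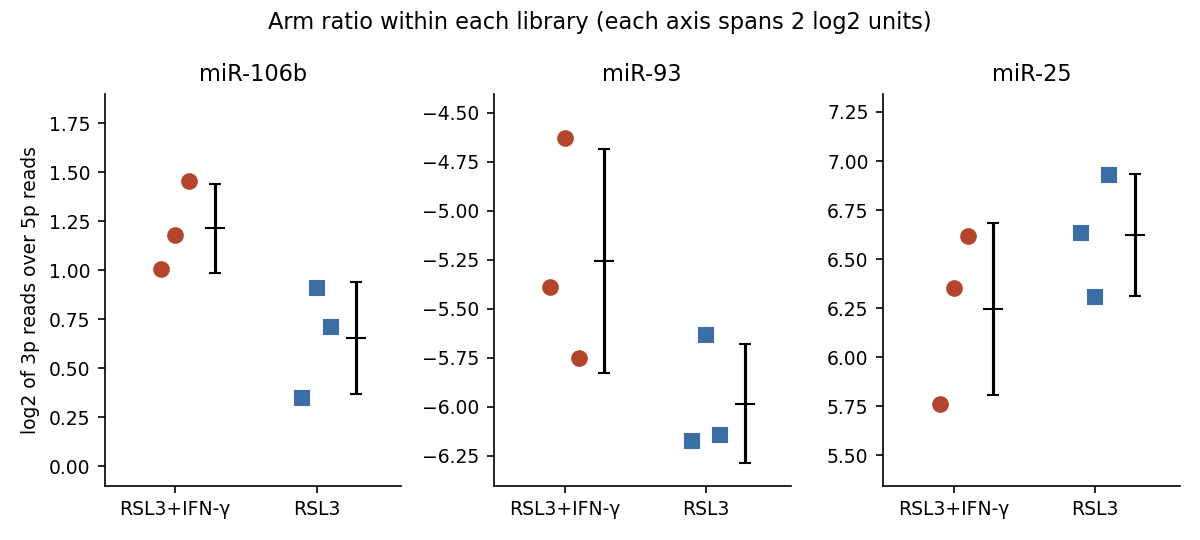
Log2 of 3p over 5p reads of each hairpin in each library, RSL3+IFN-γ (circles) and RSL3 (squares), with the mean and SD of each group (n = 3) beside the points. Each axis spans the same number of log2 units around its own centre. The groups are apart for miR-106b (1.01 to 1.46 against 0.35 to 0.91) and overlap for miR-93 and miR-25.

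Since miRNAs with the same seed address the same sites, the members were set beside the other carriers of their seeds. All 8 miRNAs with the miR-17 seed were tested. By edgeR 0 rose and 0 fell, and 5 had p under 0.05 before adjustment, beside 25.9% of all tested miRNAs. DESeq2 called 2 and limma 0, beside 12.5% and 5.28% of all. Their median log2 fold change was −0.70, beside −0.04 for all tested miRNAs. Relative to the median of all miRNAs it was −0.69 to −0.66 under the 4 scalings, and the median was −0.66 with the GC trend removed. With the replicate block miR-17-5p and miR-20a-5p fell (edgeR, 5.67% of all tested miRNAs fell with the block). MiR-17-5p, the leading member of the family, had 3857, 2487 and 3533 CPM in the RSL3+IFN-γ libraries, against 8077, 4892 and 6584 CPM in the RSL3 libraries, with no overlap. Its log2 fold change was −0.99 (edgeR adjusted p = 0.0559). MiR-20a-5p had 1279, 711 and 2149 CPM with RSL3+IFN-γ, against 4716, 1826 and 3039 CPM with RSL3, and overlapped between the groups (log2 fold change −1.21). The scarce carriers miR-20b-5p and miR-106a-5p had log2 fold changes of −0.84 and −0.76. The other 2, miR-519d-3p and miR-526b-3p, named after their values were seen, were at −0.21 and 0.02.

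Summed over the family, the miR-17 seed was present at 9306, 6218 and 9535 CPM in the RSL3+IFN-γ libraries, against 18796, 11196 and 15392 CPM in the RSL3 libraries, so that the groups did not overlap. On library totals alone the sums were 8787, 8266 and 11008 CPM with RSL3+IFN-γ, against 16185, 10224 and 13505 CPM with RSL3, and RSL3 replicate 2 lay within the RSL3+IFN-γ range, although the sum was lower with RSL3+IFN-γ in 3 of 3 same-numbered pairs. Shares within the family do not depend on scaling. MiR-93-5p and miR-106b-5p together supplied 43.6% ± 3.89 of it with RSL3+IFN-γ and 35.7% ± 4.08 with RSL3 (SD, n = 3 each), again without overlap. MiR-17-5p supplied 39.5% ± 2.24 and 43.1% ± 0.483, and miR-20a-5p 15.9% ± 5.86 and 20.4% ± 4.42 (SD, n = 3 each, RSL3+IFN-γ first). These sums and shares were not tested.

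For the miR-25 seed 5 of 6 listed miRNAs were in the table and 4 were tested. By edgeR 0 rose and 0 fell, and 1 had p under 0.05 before adjustment, beside 25.9% of all tested miRNAs. DESeq2 called 1 and limma 1, beside 12.5% and 5.28% of all. The median was −0.05, or 0.33 with library totals only, where the median of all miRNAs was 0.33 as well. With the GC trend removed it was −0.19, and 4 of 4 lay below the median of all miRNAs, against 2 of 4 under TMM. MiR-32-5p, from an intron of TMEM245 on chromosome 9, had 52.7, 27.0 and 72.9 CPM in the RSL3+IFN-γ libraries, against 179, 96.8 and 132 CPM in the RSL3 libraries. Its log2 fold change was −1.42 (edgeR adjusted p = 0.0528), and it fell with the replicate block, as did 5.67% of all tested miRNAs. It is a minor carrier, at 0.365% ± 0.129 of the family with RSL3+IFN-γ and 0.971% ± 0.298 with RSL3 (SD, n = 3 each). MiR-25-3p supplied 53.0% ± 8.43 and 51.7% ± 5.15 of the family, and miR-92a-3p supplied 42.2% ± 7.93 and 43.8% ± 4.98 (SD, n = 3 each, RSL3+IFN-γ first). The summed level was 13775 ± 3352 CPM with RSL3+IFN-γ and 14239 ± 3412 CPM with RSL3 (SD, n = 3 each), with overlap.

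**Figure D4:**
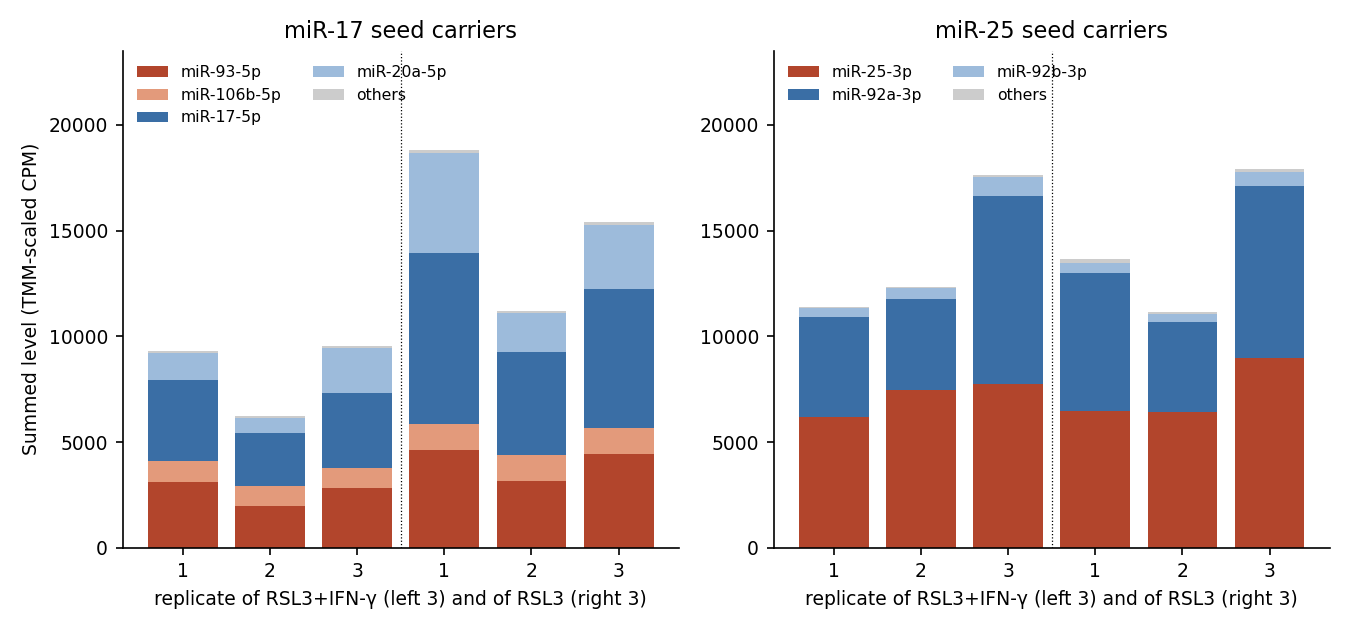
Summed TMM-scaled CPM of the miRNAs that carry the miR-17 seed (left) and the miR-25 seed (right) in each library, RSL3+IFN-γ left of the dotted line and RSL3 right of it. Colours split each bar by miRNA. The miR-17 seed sums to 6218 to 9535 CPM with RSL3+IFN-γ and 11196 to 18796 CPM with RSL3, while the sums for the miR-25 seed overlap. On library totals alone the sums for the miR-17 seed overlap too.

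The paralogous miR-17-92 cluster on chromosome 13 has the same kind of layout, with 11 of 12 listed arms tested. By edgeR 0 rose and 0 fell, and 5 had p under 0.05 before adjustment, beside 25.9% of all tested miRNAs. DESeq2 called 3 and limma 0, beside 12.5% and 5.28% of all. The median was −0.30, or −0.35 with the GC trend removed. With library totals only it was −0.05, where the median of all miRNAs was 0.33. Relative to the median of all miRNAs it was −0.27 under TMM and −0.38 with library totals only. With the replicate block 3 fell, namely miR-17-5p, miR-20a-5p and miR-19a-3p (log2 fold change −1.31), beside 5.67% of all tested miRNAs (edgeR). MiR-92a-3p and miR-19b-3p, the most abundant of the others, were at −0.08 and −0.29. MiR-17-3p, named after its value was seen, stood at 0.80 beside −0.99 for its 5p partner, and neither passed edgeR's test (adjusted p = 0.0834 and 0.0559). Of the miR-106a-363 cluster on the X chromosome 2 of 10 listed arms were tested, miR-106a-5p and miR-20b-5p above. Both had p under 0.05 before adjustment by edgeR, beside 25.9% of all tested miRNAs. EdgeR, DESeq2 and limma called 0, beside 4.75%, 12.5% and 5.28% of all. MiR-19b-3p and miR-92a-3p, which hairpins of both clusters can give, were listed under miR-17-92 only.

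Hairpins hosted in introns of SMC4, a condensin subunit, and of SKA2, a kinetochore protein, were compared as further products of cell division genes. All 7 listed arms had log2 fold changes below 0, between −1.21 and −0.18 with a median of −0.80. However, by edgeR 0 fell and 0 rose. Before adjustment 2 had p under 0.05 by edgeR, beside 25.9% of all tested miRNAs. DESeq2 called 1 and limma 0, beside 12.5% and 5.28% of all. The list held miR-16-2-3p but left out miR-16-5p. Named after its value was seen, miR-16-5p stood at −0.52 (edgeR adjusted p = 0.224), with overlap. With the GC trend removed the median of the listed arms was −0.33, and they are of low GC content (34.8% to 40.9%). Below the median of all miRNAs lay 4 of the 7 arms after this correction, against 7 of 7 under TMM without it. With the replicate block miR-454-3p (−1.21) and miR-301a-3p (−1.12) fell, as did 5.67% of all tested miRNAs (edgeR). MiR-15b-5p and miR-15b-3p, the most abundant of the other listed arms, were at −0.18 and −0.51. Host transcripts, MCM7 included, were not measured in these libraries.

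**Figure D5:**
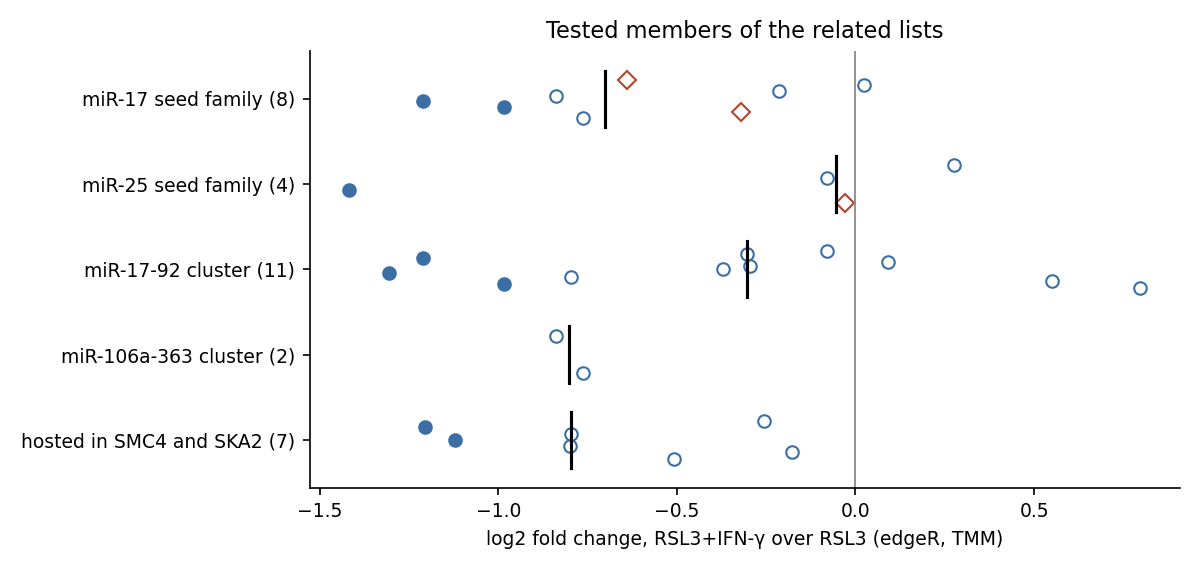
Log2 fold changes (RSL3+IFN-γ over RSL3, edgeR with TMM) of the tested members of each list, their number in brackets. Diamonds are members of the MCM7 cluster, circles other miRNAs, filled where the adjusted p was under 0.05 with the replicate block, and bars are medians. The medians are −0.70 for the miR-17 seed and −0.05 for the miR-25 seed, and no diamond is filled.

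Among the 204 other miRNAs that averaged 100 CPM or more, those whose level ran most like that of the leading arm of each hairpin were found by Pearson's r of log2 CPM over the 6 libraries, given as a measure of likeness only. For miR-93-5p they were miR-17-5p (r = 0.98), miR-548o-3p (r = 0.97) and miR-30d-5p (r = 0.97), which were all lower with RSL3+IFN-γ, at log2 fold changes of −0.99, −2.08 and −0.91. Of these miR-548o-3p passed edgeR's test (adjusted p = 0.0316). MiR-17-5p is also among the entries nearest to miR-93-5p in sequence, at a distance of 3. Whether shared reads had a part in their likeness was not tested. For miR-106b-3p they were miR-760 (r = 0.94), miR-1287-5p (r = 0.93) and miR-331-3p (r = 0.89), with log2 fold changes of 0.41, 0.19 and 0.14. For miR-25-3p they were miR-128-3p (r = 0.96), miR-184 (r = 0.87) and miR-27b-3p (r = 0.87). MiR-184, a miRNA of lens and cornea, had 5386 CPM in RSL3 replicate 3 and at most 321 CPM in every other library, and whether its likeness holds without that library was not tested. No leading arm of the cluster was among the 3 nearest miRNAs of another one. Between leading arms r was −0.66 for miR-106b-3p and miR-93-5p, 0.05 for miR-25-3p and miR-93-5p, and 0.26 for miR-106b-3p and miR-25-3p. MiR-106b-5p, which is not a leading arm, had r = 0.80 with miR-93-5p.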

How the data were processed

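The authors deposited, for each of 1596 mature miRNAs, raw read counts per library and a normalized signal, which is proportional to those counts through a library total that the authors set (table sum over that total 1.03 to 1.16). The deposited table also holds the authors' own fold changes and p-values, which were not used. Tools named in the submitters' processing notes are edgeR, Bowtie 1.1.1 and bcl2fastq, with GRCh38 as the build. Neither a miRBase release nor the handling of multiply matching reads is stated in the sources used. The labels name a small RNA library kit, the text of the study a directional RNA kit.

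Samples were grouped by title. The edgeR package (4.0.16, under R 4.3.3) was applied to the raw counts (quasi-likelihood test, TMM, filterByExpr with a minimum count of 10 and a total of 15, two-sided, Benjamini-Hochberg over 758 miRNAs), with limma 3.58.1 and DESeq2 1.42.0 as alternatives. For arm ratios, 3p reads were divided by 5p reads on the log2 scale after adding 0.5 to each, and limma tested the 181 hairpins whose arms both averaged 10 reads or more. Mature sequences were found in RefSeq for 1425 miRNAs, which covered 89.6% of the tested miRNAs and 86.2% of the tested hairpins, and GC trends were fitted by loess (span 0.75). The tests were tried on counts simulated without replicate pairing or a GC trend, so the trial does not cover these features. The changes put in were larger than that of any member, so it does not show how smaller ones are recovered. Same-numbered libraries deviated together (correlations 0.227, 0.217 and 0.207 over 758 miRNAs), above the bound of 0.1, so fits with the replicate block are also given. No label states this pairing, which rests on the same data. The normalized signal served only as another denominator.

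The members and lists were chosen with earlier results of these data known. Named beside the members are list members called with or without the block, the 2 most abundant others of each list, and the 3 miRNAs most like each leading arm. Exceptions are marked.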

Additional observations from a re-analysis of the deposited data

How the results depend on the processing

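No member was called under any of the 15 settings for levels, nor any of the 3 hairpins under the 12 settings for arm ratios. Signs were less stable. With library totals only, the log2 fold change was 0.049 for miR-106b-5p and 0.36 for miR-25-3p, and with DESeq2 that of miR-25-3p was 0.0043. With the GC trend removed it was −0.13 for miR-106b-3p and −0.18 for miR-93-3p, or −0.14 and −0.20 in the fit that also had the replicate block. Without single libraries miR-93-3p ran from −0.022 to 0.25 (below 0 without RSL3+IFN-γ replicate 2) and miR-25-3p from −0.13 to 0.12 (above 0 without RSL3+IFN-γ replicate 1 or RSL3 replicate 3). MiR-93-5p stayed negative throughout, at −0.81 to −0.48 without single libraries, with adjusted p from 0.0789 by edgeR. The replicate block changed no call among the members. The overlap of groups on library totals and the differences within same-numbered libraries were examined after seeing the data.

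Over all hairpins limma called 5 arm ratios toward 3p with 5 reads added, 4 when both arms had to average 50 reads and 1 with the block and the GC trend removed. GC corrections of arm ratios were chosen after seeing the data. Over all miRNAs 36 were called (19 rose and 17 fell), against 71 with library totals only (60 rose and 11 fell), 39 with upper-quartile factors (15 rose and 24 fell), 95 with DESeq2, 82 with the block, 20 with the GC trend removed and 16 with that and the block. Without RSL3+IFN-γ replicate 1, 2 or 3 edgeR called 95, 6 and 7, and without RSL3 replicate 1, 2 or 3 it called 0 (124 at an unadjusted p under 0.05, no other tool run), 55 and 22. With no filter 6.64% of all 1596 were called. The causes were not tested.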
